A study of Mus musculus with 36 samples.

Results

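Gene expression in adult quadriceps muscle of BSG mice, which lack beta-sarcoglycan and model limb-girdle muscular dystrophy 2E, was compared with that of BSG mice aged 2.5 weeks. The mean of 6, 8, 10, 12 and 14 weeks (10 mice) was set against 2.5 weeks (2 mice), and this estimate used all 18 BSG arrays of the 36 arrays fitted. The mice were hybridised in 2 closed loops, each holding 9 mice, 1 at each of those 5 adult ages, at 20 weeks and at the younger ages of 4, 2.5 and 1 weeks, on 9 two-colour arrays that paired neighbouring ages. GSG mice, which lack gamma-sarcoglycan and model limb-girdle muscular dystrophy 2C, were measured the same way on the other 18 arrays and are given as a parallel. Both strains were fitted together with 1 shared spread per oligonucleotide. Standard errors and p-values of BSG therefore also depend on the GSG arrays. Every mouse used here is sarcoglycan-deficient and healthy mice were not analysed here, so growth and dystrophy cannot be told apart.

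Beta-sarcoglycan is a subunit of the sarcoglycan complex, which with dystrophin and dystroglycan ties the cytoskeleton of a muscle fibre through its membrane to the extracellular matrix. Without it, fibres are damaged by contraction and pass through necrosis, infiltration by macrophages that clear the debris, and regeneration from satellite cells. In the first weeks after birth, mouse muscle also turns down fetal genes such as the imprinted *Dlk1* and replaces developmental contractile isoforms by adult ones.

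The arrays give ratios between mice and no levels, so a marker gene can show a difference between ages but not that a cell type was present. In whole muscle, more cells of a type and more RNA per cell cannot be told apart. The deposited values were read as log2 of Cy5 over Cy3, which is likely but not stated, and with the opposite direction every sign would turn. Read this way, 9 of 12 newborn muscle genes were lower at 20 than at 1 week in BSG and 10 of 12 in GSG, and *Dlk1* was at -3.05 in BSG and -3.54 in GSG (log2, 20 minus 1 week). The 2 spots of an oligonucleotide correlated over an array with a median Pearson r of 0.320 in BSG loop 1, where 4 of 9 arrays lay below 0.3, and of 0.585 in loop 2, where 0 did. Those 4 paired adult ages: 8 with 6 weeks (0.25), 10 with 8 (0.03), 12 with 10 (-0.10) and 14 with 12 (0.23). Differences among the adult mice of loop 1 rest largely on these arrays, so its course from 6 to 14 weeks is poorly measured. *Sgcb*, the gene of beta-sarcoglycan, was at -0.36 ± 0.31, a ratio among mice that all lack the protein, which checks no label.

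None of 8129 oligonucleotides passed the test in adult against 2.5-week BSG muscle (limma, Benjamini-Hochberg adjusted p under 0.05; 0% of those tested), and the smallest adjusted p was 0.595. At an unadjusted p under 0.05 there were 202 (2.48% of all), of which 131 were higher in adults (1.61% of all) and 71 lower (0.873%). This is fewer than a threshold of 0.05 would pass on independent values without any difference. The fit takes arrays as independent although neighbouring arrays share a mouse, so these p-values do not directly measure the spread between mice. With 1 value per mouse and the loop as a replicate block, 761 were at that threshold. With limma's array weights, 8 passed. Estimates are log2 differences, with a standard error (SE) whose median was 0.26 and which lay between 0.16 and 0.56 for 95% of the oligonucleotides. Differences below are therefore given as estimates that were not called, and higher and lower describe only their sign. The loops are given for part of the genes, and an estimate given alone does not mean that they were alike. Each adult mouse was also set against the 2.5-week mouse of its own loop, and all 10 adult mice lay above it for 4.12% of the oligonucleotides and below it for 5.31%. Each loop holds a single 2.5-week mouse, so whatever was particular to that mouse enters all 5 adult differences of its loop.

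Over the whole array the loops had little in common. Across the 8129 oligonucleotides, which share libraries and are not independent, the differences of loop 1 and loop 2 correlated with r = 0.05. Both were above 0 for 22.9% and below 0 for 26.5%. The standard deviation over oligonucleotides was 0.45 in loop 1 and 0.27 in loop 2. The scatter plot of both loops shows this cloud, with macrophage genes to its right.

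**Figure D1:**
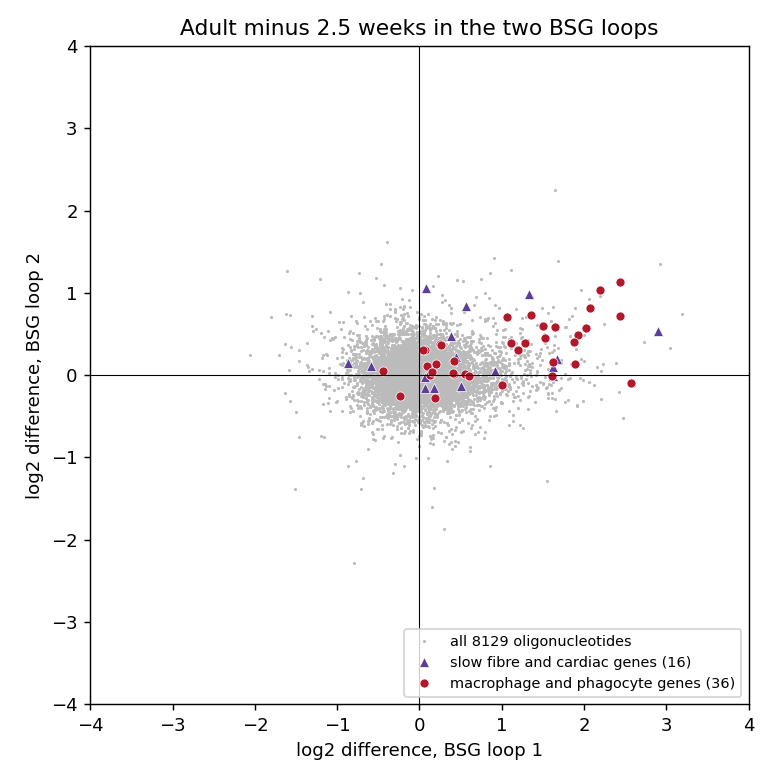
Log2 difference of adult (mean of 5 mice, 6 to 14 weeks) minus 2.5 weeks (1 mouse) in BSG loop 1 (x axis) against loop 2 (y axis), 1 point per oligonucleotide, with the measured macrophage genes and slow fibre genes marked. The cloud of all 8129 is wider along loop 1, and 28 of the 36 macrophage genes lie above 0 in both loops.

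*Ccl8*, a chemokine that attracts monocytes, had the smallest p of the genes with 1 symbol. Relative to the 2.5-week mouse, its log2 values at 6, 8, 10, 12 and 14 weeks were 2.90, 2.29, 3.06, 3.07 and 3.30 in loop 1 and 1.29, 0.67, 1.91, 1.76 and 1.12 in loop 2. Every adult mouse lay above the young mouse of its loop, and the loops did not overlap, loop 1 being higher. The estimate was 2.14 ± 0.48 (unadjusted p = 0.000146, adjusted p = 0.595, limma). The mice of 4 weeks lay at 0.81 and 1.23 in loops 1 and 2, and those of 1 week at 0.69 and 0.05.

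The other 7 genes with the smallest p on the higher side were of several kinds. *Car3*, a carbonic anhydrase of slow fibres and fat cells, lay at 2.06, 1.78, 1.71, 1.67 and 0.99 in loop 1 from 6 to 14 weeks and at 1.23, 2.32, 2.71, 2.65 and 2.34 in loop 2 (estimate 1.95 ± 0.53). All 10 mice were above the 2.5-week mice, and so were those of 1 week, at 0.67 and 1.83. *Mgp*, the matrix Gla protein that inhibits calcification, ranged from 1.11 to 2.14 in loop 1 and from 0.22 to 0.70 in loop 2 (1.06 ± 0.35). *Ppl*, the plakin periplakin of epithelia, was higher by 0.78 ± 0.19, with 0.92 in loop 1 and 0.64 in loop 2. *Clec7a*, or dectin-1, a phagocyte receptor for fungal glucans, was higher by 1.58 ± 0.52, *Zfp97* by 1.53 ± 0.48, *Pcbd1*, a pterin dehydratase, by 0.74 ± 0.24 and *Ube2v2*, a ubiquitin-conjugating enzyme variant, by 1.59 ± 0.50. *Ube2v2* lay at 2.46 in loop 1 and 0.71 in loop 2. All 10 adult mice lay above the young mouse for 6 of these 8 genes, beside 4.12% of all oligonucleotides. For *Clec7a* and *Ube2v2* 9 did, the exception in both being the 6-week mouse of loop 2. The 8 genes were picked by the smallest p of this contrast, so these counts add no evidence.

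On the lower side stood *Dlk1*, a Notch ligand family protein of fetal muscle. Its values from 6 to 14 weeks were -0.77, -0.65, -0.51, -0.27 and -1.32 in loop 1 and -1.51, -1.45, -1.03, -1.31 and -1.60 in loop 2. All 10 adult mice were below the young mouse (estimate -1.04 ± 0.30), and the 1-week mice were above it, at 2.15 and 1.22. *Kcne1l*, a subunit of potassium channels, lay at -0.90, -1.28, -1.24, -1.99 and -2.19 in loop 1 and at -1.45, -1.55, -1.59, -1.15 and -1.17 in loop 2 (-1.45 ± 0.44), with all 10 below. *Rcan3*, a regulator of calcineurin (-0.64 ± 0.20), *Sorbs3*, the adhesion adaptor vinexin (-0.54 ± 0.17), *Krt2*, a keratin (-0.58 ± 0.20), *Kif13b*, a kinesin motor (-0.65 ± 0.23), and *Pcbp3*, an RNA-binding protein (-0.76 ± 0.28), were also lower in all 10. *Vtn*, the adhesion protein vitronectin (-0.63 ± 0.23), was lower in 9, with -1.23 in loop 1 and -0.04 in loop 2. These genes too were picked by the smallest p, and 5.31% of all oligonucleotides lay below in all 10.

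**Figure D2:**
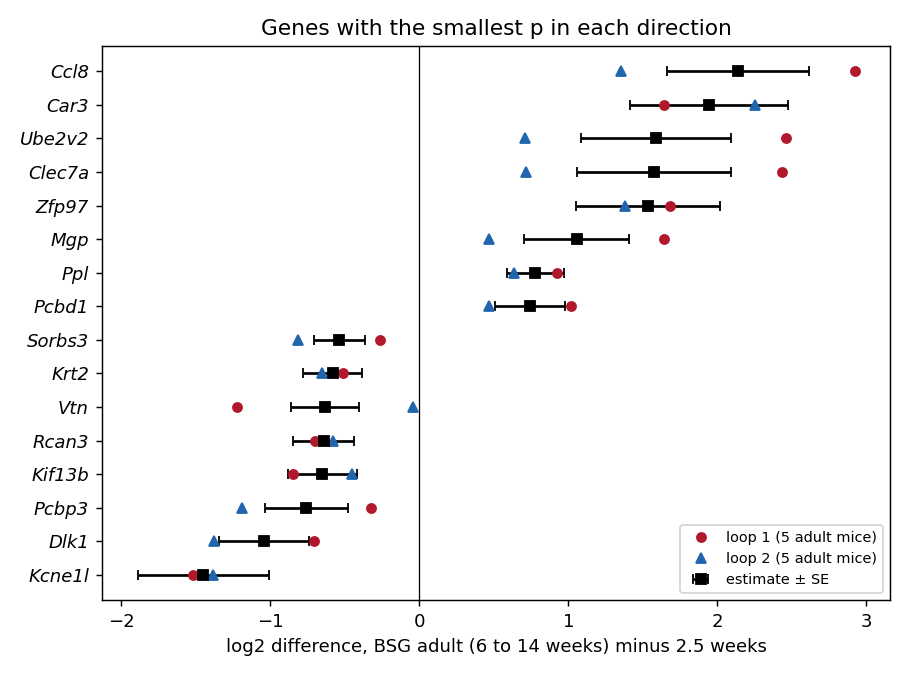
Log2 difference of adult minus 2.5 weeks in BSG muscle for the 8 genes per direction with the smallest p among genes with 1 symbol and the same sign in both loops, with the estimate, its SE and both loops. None passed the adjusted threshold, and Ccl8 has the highest estimate (2.14) and Kcne1l the lowest (-1.45).

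Genes of macrophages and other phagocytes lay mostly above 0. Of 44 listed genes 36 were measured, and 33 of these had an estimate above 0, beside 48.5% of all oligonucleotides. At an unadjusted p under 0.05, 12 of 36 (33.3%) were higher and 0 lower, beside 1.61% and 0.873% of all oligonucleotides. The list was written with earlier results of these data known and includes *Clec7a* and *Lyz1*, which the study singled out on these samples. Its counts are a description and no independent evidence. All 10 adult mice lay above the young mouse in 12 of 36, beside 4.12% of all. The list median was 0.75, from 1.08 in loop 1 and 0.30 in loop 2, and the median of all oligonucleotides was -0.01. In single adult mice the list median lay between 0.61 and 1.44 in loop 1 and between 0.13 and 0.33 in loop 2, so every adult mouse of loop 1 was above every one of loop 2. At 4 weeks it was 0.42 and 0.33. Fitted without loop 1, 0 of 36 had an unadjusted p under 0.05, and without loop 2, 13 did. With 2.5 and 4 weeks together as young 5 did and the list median was 0.40, and with the arrays scaled to one spread 7 did. With any 1 array left out the count lay between 2 and 16, the lowest without the array of 6 and 4 weeks in loop 1.

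*Lyz1* encodes lysozyme, which cleaves bacterial cell walls. Its values from 6 to 14 weeks were 1.96, 2.11, 2.63, 2.76 and 2.74 in loop 1 and 0.39, 0.86, 1.67, 1.39 and 1.36 in loop 2 (estimate 1.79 ± 0.61). All 10 lay above the young mice and the loops did not overlap. The oligonucleotide of its near copy *Lyz2*, named after its value was seen, was at -0.25 ± 0.20, and cross-hybridisation between the pair was not tested. *Ctss*, a cathepsin that trims the invariant chain of MHC class II, lay at 1.56, 1.38, 1.86, 2.90 and 2.67 in loop 1 and 0.23, 0.68, 1.16, 1.06 and 0.99 in loop 2 (1.45 ± 0.55). *Clec7a* lay at 2.05, 1.54, 2.45, 3.27 and 2.87 and at -0.12, 0.52, 1.21, 1.03 and 0.95. Both genes were higher in every adult mouse of loop 1 than in any of loop 2. *Cd52*, a surface glycoprotein of leukocytes, ranged over the 10 adult mice from 0.15 through a median of 1.11 to 2.67 (1.21 ± 0.45). The other members at an unadjusted p under 0.05 included 6 that are named here after their values were seen: *Slc11a1*, *Tyrobp*, *Adgre1*, *Aif1*, *Ly86* and *Cd68* lay between 0.75 and 1.14, each with all 10 adult mice above the young mouse.

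The sequence upstream of 3 of these genes is shown for context, as the 200 bases before the start of the gene (RefSeq, GRCm38.p6, 5′ to 3′ on the gene's strand). Capitals mark TATAAA, the TATA box, in *Ccl8*, and GAGGAA, the core of sites bound by the macrophage factor PU.1, in *Clec7a* and *Ctss*.
Ccl8 (chr11:82114985-82115184, plus strand): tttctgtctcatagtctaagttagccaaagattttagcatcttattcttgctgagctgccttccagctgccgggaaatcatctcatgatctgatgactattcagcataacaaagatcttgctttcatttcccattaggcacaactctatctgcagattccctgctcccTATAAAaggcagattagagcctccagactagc
Clec7a (chr6:129472780-129472979, minus strand): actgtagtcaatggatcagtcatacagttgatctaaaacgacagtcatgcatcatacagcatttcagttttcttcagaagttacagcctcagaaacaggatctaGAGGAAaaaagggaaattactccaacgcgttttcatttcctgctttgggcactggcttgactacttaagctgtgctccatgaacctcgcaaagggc
Ctss (chr3:95526586-95526785, plus strand): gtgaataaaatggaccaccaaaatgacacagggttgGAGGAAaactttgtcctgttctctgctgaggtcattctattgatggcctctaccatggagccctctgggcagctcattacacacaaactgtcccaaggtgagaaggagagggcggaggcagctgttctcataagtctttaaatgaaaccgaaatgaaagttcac
On both strands of these 200 bases, GAGGAA occurred in 11 of the 25 macrophage genes with a promoter entry (44%) and in 18.9% of all 27025 promoters, and TATAAA in 1 of 25 and in 10.6% of all. These are matches of letters and not shown to be bound.

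The 11 inflammation genes singled out by the study were chosen on these samples among others, so their direction here is no independent evidence. The study picked them for a fitted (temporary) up-regulation beyond a cut-off in dystrophin-deficient, BSG and GSG mice but not in wild-type mice. It reported all 11 as up-regulated in a separate comparison of mouse models of muscular dystrophy as well. Neither point was tested here. At an unadjusted p under 0.05, 7 of the 11 were higher and 0 lower, beside 1.61% and 0.873% of all oligonucleotides. The median was 1.30, from 1.99 in loop 1 and 0.57 in loop 2. With 2.5 and 4 weeks together as young, or with the arrays scaled to one spread, 4 were higher, and without loop 1, 1 was. Besides *Ccl8*, *Clec7a* and *Lyz1* the 7 were *Cd74* (1.15 ± 0.41), *Lgals3*, a galectin of macrophages (1.61 ± 0.65), *Mpeg1*, a pore-forming protein of phagocytes (1.30 ± 0.55), and *S100a4*, a calcium-binding protein of motile cells (1.35 ± 0.60). *Mpeg1* lay at 2.02 in loop 1 and 0.57 in loop 2. *Lgals3* ranged from 0.55 through a median of 1.49 to 2.79, all above the young mice. The loops parted for *Laptm5*, a lysosomal membrane protein, with 1.61 in loop 1 and -0.01 in loop 2. They parted too for *Sirpa*, an inhibitory phagocyte receptor (1.89 and 0.13), and for the chemokines *Ccl9* (1.70 and 0.16) and *Ccl6* (1.99 and -0.06).

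Of 31 measured chemokines, 4 (12.9%) were higher at an unadjusted p under 0.05 and 0 lower, beside 1.61% of all oligonucleotides higher, with a list median of 0.13. All 10 adult mice lay above the young mouse in 7 (22.6%), beside 4.12% of all. *Ccl2*, which recruits monocytes, was higher by 1.58 ± 0.76 and ranged over the adult mice from 0.49 through a median of 1.46 to 3.30. *Ccl11*, the eosinophil attractant eotaxin, was higher by 0.79 ± 0.33, and *Ccl21a*, which guides dendritic cells and T cells, by 0.90 ± 0.43.

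Antigen presentation was measured by 8 of 31 listed genes, and 4 were higher at an unadjusted p under 0.05 and 0 lower, beside 1.61% and 0.873% of all. The list median was 0.42, from 0.58 in loop 1 and 0.40 in loop 2. With the arrays scaled to one spread, 1 was higher. *Cd74*, the invariant chain of MHC class II, lay at 1.58, 1.80, 2.05, 1.78 and 1.95 in loop 1 from 6 to 14 weeks and at 0.49, -0.04, 0.96, 0.68 and 0.27 in loop 2. All but the 8-week mouse of loop 2 were above the young mouse, and the loops did not overlap. *B2m*, the light chain of MHC class I, was higher by 1.21 ± 0.52 and *Psmb10*, of the immunoproteasome, by 0.40 ± 0.19, both in all 10 mice. *B2m* lay at 1.93 in loop 1 and 0.49 in loop 2. The remaining member was *Ctss*.

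Of 25 interferon genes 3 were higher at that threshold, beside 1.61% of all oligonucleotides, with a list median of 0.13. These were *Irf5*, a transcription factor of myeloid cells (0.95 ± 0.33), *Ifi203* (1.23 ± 0.48) and *Iigp1*, a GTPase against intracellular pathogens (0.74 ± 0.31). *Irf5* lay at 1.55 in loop 1 and 0.34 in loop 2. Of 33 cytokines and receptors, *Il15*, a cytokine made by muscle that supports natural killer cells, was higher by 1.00 ± 0.34, while a second oligonucleotide of the gene was at -0.19. *Csf1*, the growth factor of macrophages, was at -0.42 ± 0.19 and *Il6ra*, a chain of the interleukin 6 receptor, at -0.40 ± 0.19, both lower in all 10 adult mice. Complement genes (16, median 0.13) had 1 member higher and lysosomal genes (29, median 0.10) 0 in either direction. T, B and NK cell genes (19, median -0.08) and those of neutrophils, eosinophils and mast cells (17, median 0.09) also had 0.

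Genes of alternatively activated macrophages, a state linked to repair, had 0 of 11 members at an unadjusted p under 0.05 and a median of 0.33, from 0.42 in loop 1 and 0.07 in loop 2. For *Mrc1*, the mannose receptor, the adult mice lay from 2.35 to 3.12 in loop 1 and from -0.38 to 0.17 in loop 2. For *Retnla*, a secreted marker of that state, the ranges were 1.94 to 2.96 and -0.70 to -0.23. Both genes were thus high in one loop alone. *Tgfb1*, the growth factor TGF-beta 1, was alike in both, with 0.42 in loop 1 and 0.40 in loop 2 (0.41 ± 0.21).

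**Figure D3:**
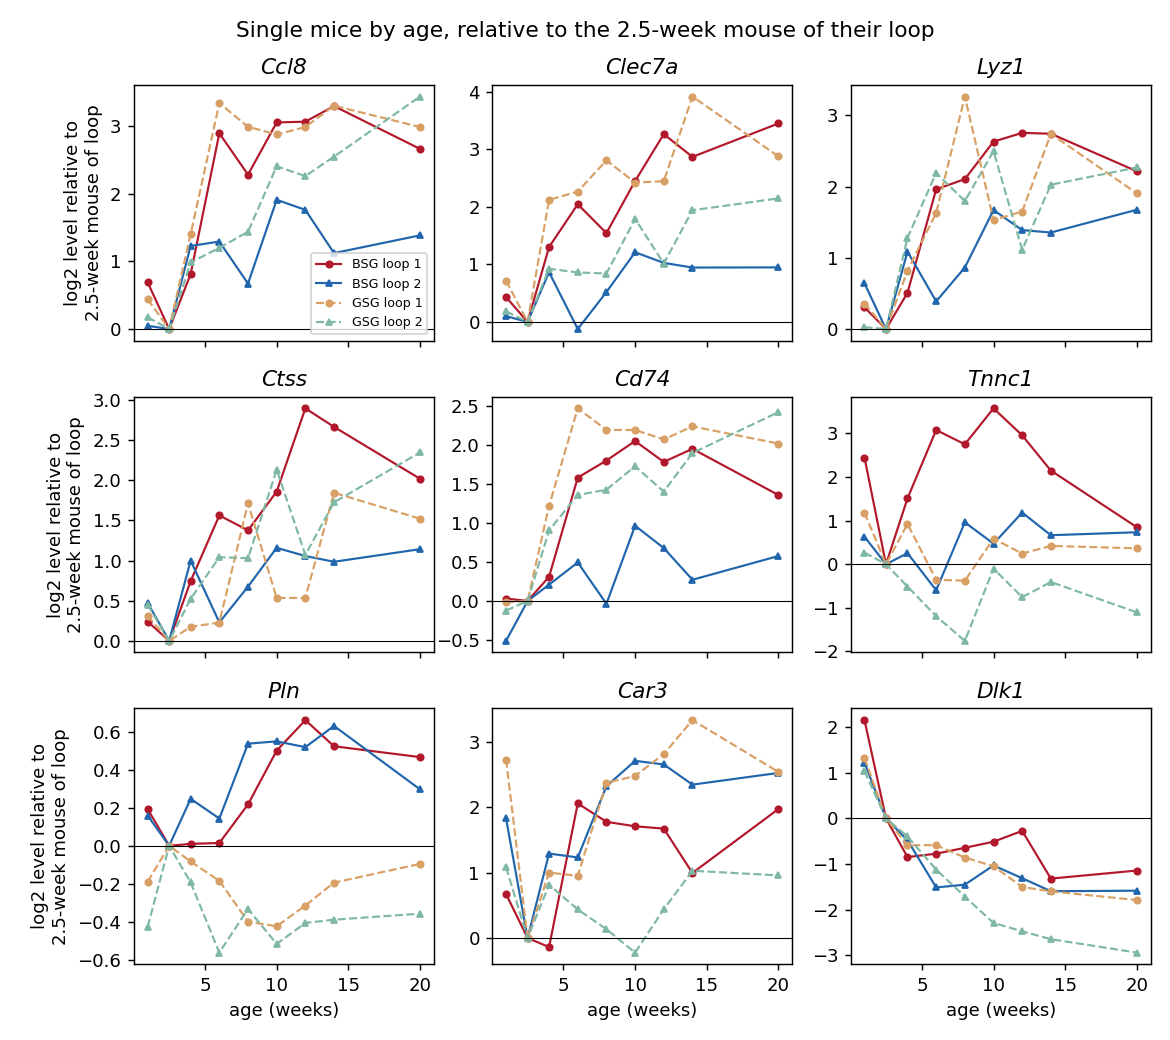
Log2 values of 9 genes in single mice relative to the 2.5-week mouse of the same loop (y axis) by age in weeks (x axis), with BSG loops as solid and GSG loops as dashed lines. In BSG the macrophage genes are higher in loop 1 than in loop 2 at the adult ages, and Pln lies above 0 in all 10 adult BSG mice and below 0 in all 10 adult GSG mice.

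Extracellular matrix genes lay on both sides of 0. *Col1a1*, a chain of the main fibrillar collagen, was at -1.36, -1.31, -1.69, -1.40 and -1.53 in loop 1 from 6 to 14 weeks and at -0.53, -1.37, -0.38, -0.56 and -0.92 in loop 2, below the young mouse in all 10 (-1.10 ± 0.47). The 4-week mice were at -1.92 and -0.69. It was the single collagen of 25 at an unadjusted p under 0.05 (list median -0.06). *Col4a1*, of basement membranes, was also below in all 10 mice (-0.76 ± 0.39). *Timp1*, an inhibitor of matrix metalloproteinases, had a lowest adult value of 0.43 and a median of 0.87, all 10 above (1.13 ± 0.48), and *Thbs4*, a thrombospondin that strengthens the muscle membrane, was higher by 0.96 ± 0.34 in all 10. Collagen processing enzymes had 0 of 15 members at that threshold, elastic fibres, proteoglycans and other matrix proteins 1 of 30 (*Mgp*), matricellular proteins and TGF-beta ligands 1 of 29 (*Thbs4*) and matrix proteases and inhibitors 1 of 25 (*Timp1*). The medians of these 4 lists were 0.00, 0.05, 0.02 and 0.00. Of all oligonucleotides, 1.61% were higher and 0.873% lower at that threshold.

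In the dystrophin-associated complex and membrane repair list, 3 of 31 members were higher at an unadjusted p under 0.05 and 0 lower, beside 1.61% and 0.873% of all. All 3 were calcium-binding proteins. *Anxa4* was higher by 1.00 ± 0.39, *S100a4* by 1.35 ± 0.60 and *Anxa7* by 0.55 ± 0.25, each in all 10 mice. *Anxa4* lay at 1.68 in loop 1 and 0.33 in loop 2. *Anxa1*, an annexin that binds damaged membranes, was at 1.16 ± 0.63, also with all 10 above. The list median was 0.06.

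Slow fibre and cardiac genes had a median of 0.46 over 16 measured members, from 0.47 in loop 1 and 0.12 in loop 2, with 3 (18.8%) higher at an unadjusted p under 0.05 and 0 lower, beside 1.61% of all higher and 0.873% lower. *Tnnc1*, troponin C of slow and cardiac muscle, lay at 3.08, 2.75, 3.58, 2.96 and 2.15 in loop 1 from 6 to 14 weeks and at -0.60, 0.96, 0.47, 1.19 and 0.67 in loop 2 (1.72 ± 0.74). The loops did not overlap, and the 1-week mice were also above the 2.5-week mice, at 2.45 and 0.63. *Tnni1*, slow troponin I, lay at 1.60, 1.51, 1.79, 1.39 and 0.38 in loop 1 and -0.05, 0.99, 1.32, 1.76 and 0.92 in loop 2 (1.16 ± 0.55), with all but the 6-week mouse of loop 2 above. *Pln*, phospholamban, which restrains the calcium pump of slow fibres, ranged from 0.01 through a median of 0.52 to 0.66, above the young mouse in all 10 (0.43 ± 0.18). *Atp2a2*, that pump, was at 0.86 ± 0.50, with 1.62 in loop 1 and 0.10 in loop 2. *Tnnt2*, cardiac troponin T, lay at 1.62 in loop 1 and -0.01 in loop 2. Without loop 1, 0 members had an unadjusted p under 0.05, and without loop 2, 5 were higher. With 2.5 and 4 weeks together as young, 1 was higher and the median was 0.26.

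Fast fibre genes had a median of -0.29 over 16, with 12 estimates below 0 and 0 members at an unadjusted p under 0.05. Of all oligonucleotides, 48.5% had an estimate above 0, and at that threshold 1.61% were higher and 0.873% lower. *Pvalb*, the calcium buffer parvalbumin, was below in all 10 mice (-0.59 ± 0.46), and *Tcap*, telethonin of the Z-disc, above in all 10 (0.89 ± 0.49). Calcium handling (25, median -0.12) had *Pln* alone at that threshold. Myogenic regulators and satellite cells (34, median 0.06) and acetylcholine receptor and endplate genes (11, median -0.10) had 0 members there. In the latter, *Chrne*, the adult receptor subunit, was at -0.58 ± 0.34 and *Chrna1*, the alpha subunit, at 0.44 ± 0.24.

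Of 31 imprinted genes 2, *Dlk1* and *Ndn*, were lower at an unadjusted p under 0.05 and 0 higher, beside 0.873% and 1.61% of all (list median -0.04). *Ndn*, the growth suppressor necdin, ranged from -1.21 through a median of -0.99 to -0.53, below the young mouse in all 10 (-0.91 ± 0.36), and the 1-week mice were at 1.07 and 1.03. *Cdkn1c*, the cell cycle inhibitor p57, was below in all 10 with -0.87 in loop 1 and -1.10 in loop 2 (-0.98 ± 0.51). Over the 12 newborn and embryonic muscle genes the median was 0.08, with *Tnni1* higher and *Dlk1* lower at that threshold.

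Fatty acid uptake and oxidation genes lay mostly below 0, with 20 of 25 estimates below it and a median of -0.18. Estimates above 0 made up 48.5% of all oligonucleotides. In 6 of 25 (24%) all 10 adult mice lay below the young mouse, beside 5.31% of all. The list median was already -0.35 in loop 1 and -0.46 in loop 2 at 4 weeks. In single adult mice it lay between -0.37 and -0.11 in loop 1 and between -0.35 and -0.15 in loop 2. *Cpt1b*, which admits fatty acids to mitochondria, lay from -1.46 to -0.95 in loop 1 and from -0.51 to -0.15 in loop 2 (-0.69 ± 0.39). *Ech1*, an enzyme of beta-oxidation (-0.64 ± 0.43), and *Slc25a20*, the carnitine carrier (-0.53 ± 0.38), were below in all 10 as well. *Ucp3*, the uncoupling protein of muscle, was the only member at an unadjusted p under 0.05 (-0.49 ± 0.18), beside 0.873% of all lower and 1.61% higher. Glycolysis (36, median -0.12) and the respiratory chain with the citric acid cycle (36, median -0.10) had 0 such members. Adipocyte genes (17, median -0.02) had *Car3* alone, and *Ucp1*, the uncoupling protein of brown fat, was lowest, with -0.80 in loop 1 and -2.28 in loop 2 (-1.54 ± 0.75).

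Endothelial genes lay lower, with 19 of 23 estimates below 0 and a median of -0.16. Estimates above 0 made up 48.5% of all oligonucleotides. At an unadjusted p under 0.05, 4 of 23 (17.4%) were lower and 0 higher, beside 0.873% of all lower. *Cdh5*, the cadherin of vessel walls, ranged from -1.12 through a median of -0.62 to -0.45, below the young mouse in all 10 (-0.65 ± 0.26). *Icam2*, an adhesion molecule (-0.55 ± 0.24), and *Cldn5*, of tight junctions (-0.66 ± 0.30), were below in all 10, and *Aqp1*, a water channel, lay at -1.18 in loop 1 and 0.05 in loop 2. Without loop 1, 0 members were lower at that threshold, and without loop 2, 2. With 2.5 and 4 weeks together as young 0 were lower and the median was -0.05. From first spots alone 1 was lower, and with the arrays scaled to one spread or without arrays of low duplicate correlation 2 were. Schwann cell and nerve genes had 18 of 19 estimates below 0 (median -0.20), with *Nefh*, a neurofilament, at -0.44 ± 0.20. Smooth muscle and pericyte genes (9, median -0.12) and red blood cell genes (9, -0.13) had 0 members at an unadjusted p under 0.05, and skin genes (13, -0.04) had *Ppl*.

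**Figure D4:**
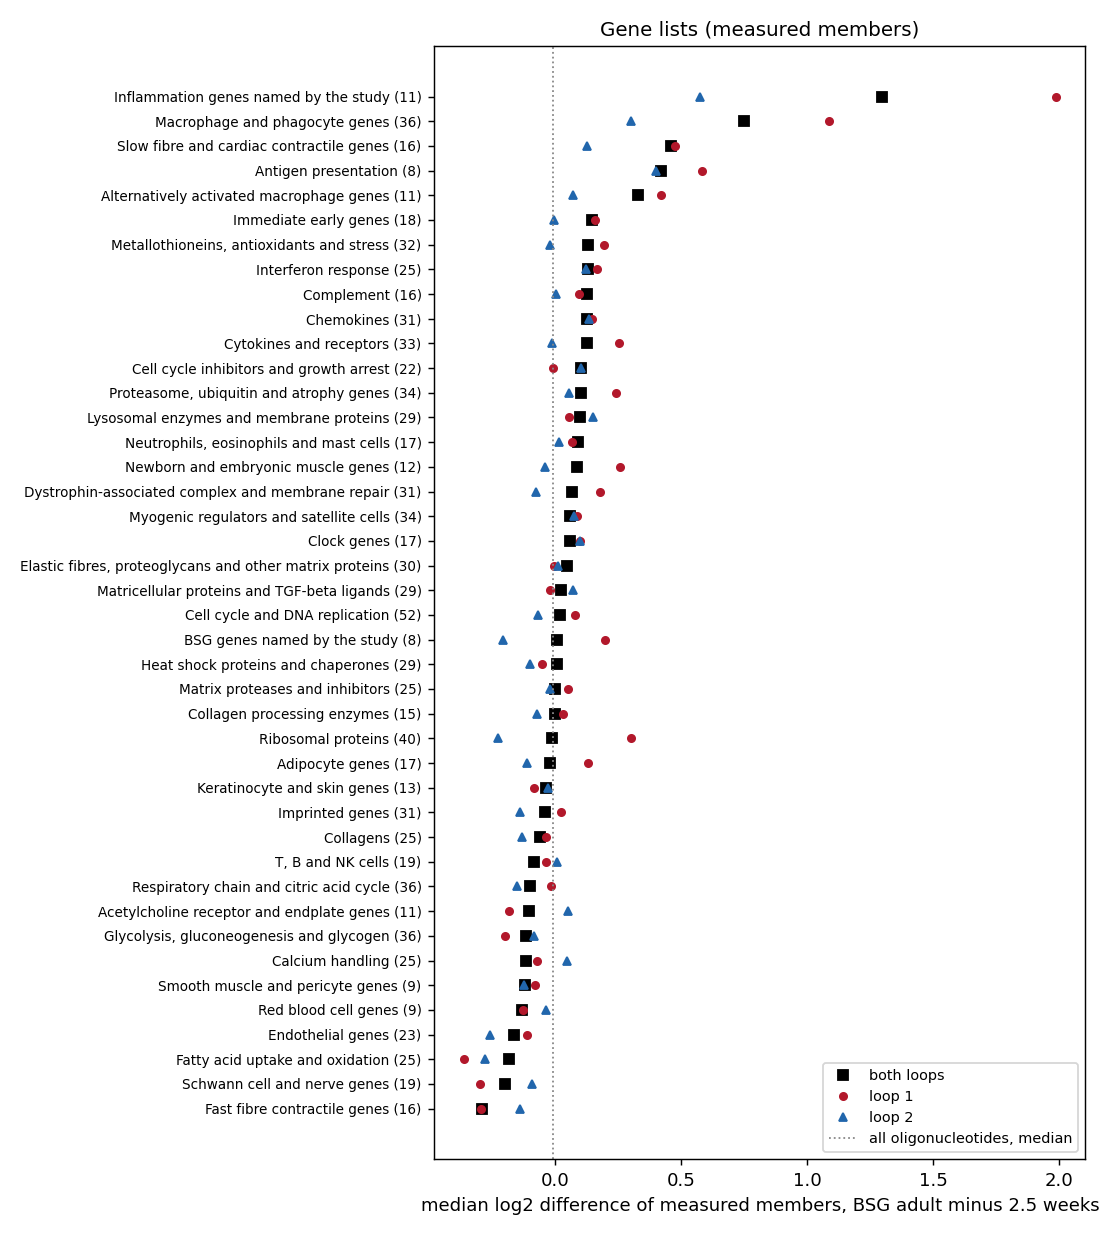
Median log2 difference of adult minus 2.5 weeks over the measured members of each gene list in BSG muscle, for the estimate over both loops and for each loop. The study's inflammation genes (1.30), macrophage genes (0.75) and slow fibre genes (0.46) have the highest medians, each higher in loop 1 than in loop 2.

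In the remaining lists the medians lay between -0.01 and 0.15. At an unadjusted p under 0.05, 1.61% of all oligonucleotides were higher and 0.873% lower. Cell cycle and DNA replication (52, median 0.02) had 1 member lower, *Cdc6*, a replication licensing factor (-0.54 ± 0.25), and cell cycle inhibitors (22, 0.10) 1 higher, *Gadd45g* (0.88 ± 0.39). The ribosomal median of -0.01 (40) came from 0.30 in loop 1 and -0.23 in loop 2. Proteasome, ubiquitin and atrophy genes (34, 0.10), heat shock proteins (29, 0.01), metallothioneins and antioxidants (32, 0.13) and immediate early genes (18, 0.15) had 0 members at an unadjusted p under 0.05. Of 17 clock genes (median 0.06), *Dbp* was higher by 0.90 ± 0.33 and *Bhlhe40* by 0.74 ± 0.36. The study held that differences in *Dbp* were likely due to the time of day of killing, which varied between ages and strains. Age and time of day cannot be told apart here. Of 8 genes the study named for BSG, chosen on these arrays and so no independent evidence, *Slc7a9*, an amino acid transporter (-0.66 ± 0.25), and *Barhl1*, a homeobox factor (-0.49 ± 0.18), were lower in all 10 mice (list median 0.01).

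In GSG muscle, 4 oligonucleotides passed the same contrast (0.0492% of 8129; limma, adjusted p under 0.05), 2 of them with a gene symbol. *Ccl8* rose by 2.54 ± 0.48 on the log2 scale and *Dlk1* was at -1.58 ± 0.30, both with an adjusted p of 0.0426. The difference between the strains passed for 0 of 8129 (0%; 103 at an unadjusted p under 0.05; smallest adjusted p 0.9998). A call in GSG and none in BSG is therefore not shown to be a difference between them. The 18 BSG and 18 GSG mice are separate animals.

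Side by side, the macrophage median was 0.75 in BSG and 0.93 in GSG, and 0 of 36 members had an unadjusted p under 0.05 for the difference, beside 1.27% of all. *Lyz1* lay at 1.79 in BSG and 2.04 in GSG, *Clec7a* at 1.58 in BSG and 2.03 in GSG and *Ctss* at 1.45 in BSG and 1.19 in GSG. The slow fibre median was 0.46 in BSG (0.47 in loop 1, 0.12 in loop 2) and -0.18 in GSG (0.12 in loop 1, -0.50 in loop 2). For the difference, 1 of 16 members, *Pln*, had an unadjusted p under 0.05 (limma), beside 1.27% of all. *Tnnc1* lay at 1.72 in BSG and -0.37 in GSG (unadjusted p for the difference 0.0575, limma). *Pln* lay at 0.43 in BSG and -0.37 in GSG, above the young mouse in all 10 adult BSG mice and below it in all 10 adult GSG mice, and its difference of 0.80 ± 0.25 had an unadjusted p of 0.00415 and an adjusted p of 0.9998 (limma). It was picked for a small p of this difference, so the split of the mice adds no evidence. The other genes with the smallest p and a higher value in BSG were *Trpv2*, a calcium-permeable channel (0.42 in BSG and -0.48 in GSG), *Lfng*, a modifier of Notch (0.20 in BSG and -0.85 in GSG), and *Dcpp1* (0.11 in BSG and -0.51 in GSG). Those with a lower value were *Crygd*, a lens crystallin (-0.46 in BSG and 0.78 in GSG), *Drd2*, a dopamine receptor (-0.47 in BSG and 1.09 in GSG), *Bcar3*, a signalling adaptor (-0.67 in BSG and 0.44 in GSG), and *Lag3*, an inhibitory T cell receptor (-0.50 in BSG and 0.34 in GSG).

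At 20 weeks, 0 of 8129 oligonucleotides differed from the adult mean by the test in BSG (0%; limma; 163 at an unadjusted p under 0.05, 1.17% higher and 0.837% lower; smallest adjusted p 0.978). The macrophage list was 0.14 above its adult mean in the median. In the 20-week mice of loops 1 and 2, *Ccl8* lay at 2.67 and 1.39, *Clec7a* at 3.45 and 0.95 and *Lyz1* at 2.22 and 1.68 relative to 2.5 weeks. The slow fibre list lay at -0.74 from its adult mean, and 4 of 16 members were lower at an unadjusted p under 0.05, beside 0.837% of all. Its median in single mice was 0.35 at 14 and -0.61 at 20 weeks in loop 1, and 0.23 and 0.11 in loop 2. *Tnni1* at 20 weeks was at -0.88 and 0.83, opposite in sign. The respiratory chain list lay at -0.45 from its adult mean, and at 20 weeks its median was -0.85 in loop 1 and -0.19 in loop 2.

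Of the 8 genes with the smallest p at 20 weeks, *Il6*, an inflammatory cytokine, was 1.59 ± 0.47 above its adult mean, *Ntn1*, the guidance cue netrin-1, 0.59 ± 0.16, *Calb2*, the calcium buffer calretinin, 0.60 ± 0.18 and *Kif21a*, a kinesin, 0.51 ± 0.15. On the lower side, *Fli1*, a transcription factor of blood and endothelium, was at -0.71 ± 0.16 from its adult mean, *Barhl1* at -0.57 ± 0.17, *Chrna1* at -0.72 ± 0.22 and *Plod1*, a collagen lysyl hydroxylase, at -0.68 ± 0.21.

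**Figure D5:**
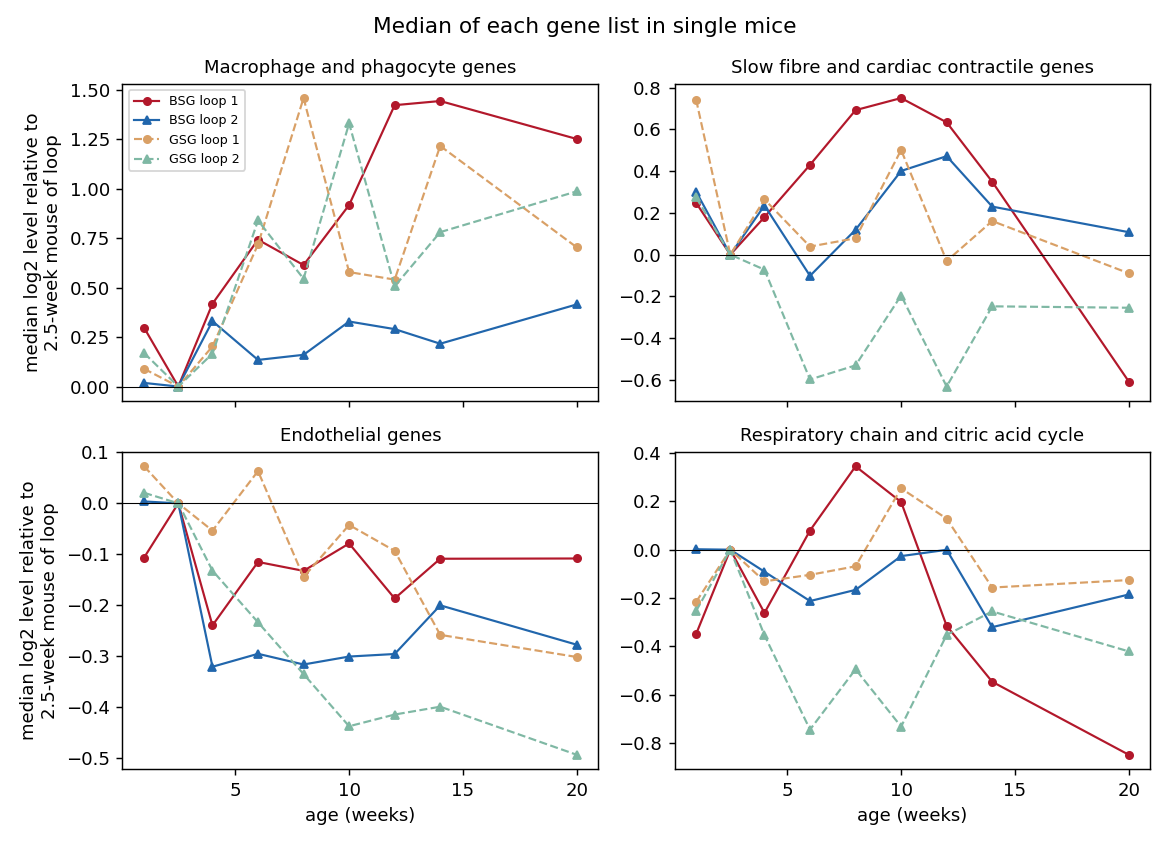
Median log2 value over the measured members of 4 gene lists in single mice, relative to the 2.5-week mouse of the same loop (y axis), by age in weeks (x axis), with BSG loops as solid and GSG loops as dashed lines. In BSG the macrophage median is above 0 at every later age in both loops, and the slow fibre and respiratory chain medians of loop 1 are lowest at 20 weeks (-0.61 and -0.85).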

How the data were processed

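Quadriceps RNA of single mice was amplified linearly, labelled through aminoallyl-UTP and hybridised to arrays of long oligonucleotides spotted in duplicate. The authors read the spots with GenePix and normalised the log ratios with the all.norm function of the smida R package, which removes spatial, dye and across-array effects. The deposited values are 1 log2 ratio per spot and array; their base and direction are not stated in the sources used here, and intensities were not used here, so dim spots could not be filtered.

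Of 16416 spots, the 2 spots of each oligonucleotide were averaged, as were 80 pairs of *Gapdh* controls, which left 8129 oligonucleotides (6752 with 1 gene symbol, 7 with several, 1370 with none). Symbols came from GEO's platform annotation and were updated through Entrez identifiers to RefSeq for 6722. A linear model with 8 ages per strain relative to 1 week was fitted to all 36 arrays (20 residual degrees of freedom) in limma 3.58.1 with R 4.3.3, with Benjamini-Hochberg adjustment over all oligonucleotides. Values of single mice came from a fit of each loop alone. Neighbouring ages share arrays, so the values of mice in a loop are not independent. Mice of an age are separate animals.

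Genes were named by a rule: the 8 smallest p per direction with equal sign in both loops, the 4 smallest p of each of 42 gene lists, all genes the study named, and the 4 smallest p per direction for the strain difference and for 20 weeks. A gene with several oligonucleotides was counted by the one with the smallest p. Members, lists and rules were chosen with earlier results of these data known. The alternatives were array weights, centring, scaling, a dye term, single spots, other ages, other sample sets and a fit of 1 value per mouse with the loop as a block. The fit was tested on simulated data.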

Additional observations from a re-analysis of the deposited data

Results flagged for a closer look

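For 82 genes the 5 adult BSG mice of each loop were searched for a mouse far from the others, and 14 of 164 such groups held one. The cut-off would flag about 1 in 20 groups of independent values. Mice of a loop share arrays and the groups share mice, so that rate does not hold here and an excess was not tested. Values are log2 relative to the 2.5-week mouse of the loop. In loop 2 the 6-week mouse stood apart for 6 genes: it was lowest for *Car3* (1.23), *Zfp97* (0.27), *Ube2v2* (-0.23), *Il15* (-0.39) and *Pln* (0.14), and highest for *Vtn* (0.34). The 6-week mouse of loop 1 was highest for *Rcan3* (-0.40) and for *Bcar3* (0.22). The 14-week mouse of loop 1 was lowest for *Tnni1* (0.38) and *Cpt1b* (-1.46), and that of loop 2 highest for *Anxa7* (0.83). The 10-week mice were highest for *Sirpa* in loop 1 (2.52) and for *Psmb10* in loop 2 (0.43), and the 8-week mouse of loop 2 was lowest for *Ndn* (-1.21).

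*Pln* differed in sign between the strains, with all 10 adult BSG mice above and all 10 adult GSG mice below the young mouse of their loop. The lowest adult BSG value was 0.01. *Pln* was picked for a small p of this difference, so the split partly restates the choice. How many of all oligonucleotides split in this way was not counted. The difference of 0.80 had an unadjusted p of 0.00415 and an adjusted p of 0.9998 (limma), so it did not pass.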

How the results depend on the processing

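The count of 0 oligonucleotides called in BSG adult against 2.5 weeks became 8 (6 higher) with array weights, whose estimation gave a convergence warning, and lay between 0 and 2 without either loop (2 without loop 2) and at 0 with any 1 array left out. With 1 value per mouse and the loop as a replicate block it was 0 (761 at an unadjusted p under 0.05; smallest adjusted p 0.0533). The genes described in the text that passed with array weights were *Ccl8*, *Ppl*, *Car3*, *Dlk1*, *Sorbs3* and *Thbs4*. The GSG count of 4 became 103 with the loop as a replicate block, 10 with array weights, 7 with 6 to 20 weeks as adult, 2 without arrays of low duplicate correlation and 2 from first spots alone. It became 1 with centred arrays, and 0 with scaled arrays, second spots alone, no moderation, 8 to 14 weeks as adult, 2.5 and 4 weeks as young, or oligonucleotides with 1 symbol alone. The strain difference gave 1 call with the replicate block, *Crygd*. The 20-week comparison gave 133 with array weights and between 0 and 5 without either loop (5 without loop 2). The causes of these shifts were not tested.

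Of 82 genes checked in the BSG contrast, 8 turned sign under a setting. Without loop 1 and without loop 2, *Laptm5* lay at -0.013 and 1.61, *Ccl6* at -0.065 and 1.99, *Mrc1* at -0.096 and 2.57, *Retnla* at -0.52 and 2.47, *Tnnt2* at -0.011 and 1.62, *Aqp1* at 0.051 and -1.18 and *Lfng* at -0.064 and 0.46. *Lfng* also turned with array weights (-0.045) and *Dcpp1* with first spots alone (-0.0099). The macrophage median was 0.30 without loop 1, 1.08 without loop 2, 0.40 with 2.5 and 4 weeks as young and between 0.51 and 0.86 with any 1 array left out. The 2 young mice and the SE of about 0.26 limit what can be called.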
